A study of Mus musculus with 8 samples.

Results

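This account covers 10 genes of lysosomal degradation, namely 9 cathepsins (Ctsb, Ctsd, Ctsk, Ctsl, Ctss, Ctsz, Ctsa, Ctsc and Ctsh) and the tartrate-resistant acid phosphatase Acp5. They are the rows of the deposited expression table that carry these symbols, 10 of 48490 genes, and they are enzymes that osteoclasts also use. All 10 were found, and 9 passed the filter on low values. Ctss did not. The libraries are pools of 70 cells each, picked by hand for red fluorescence from the proximal tibia of mice at postnatal day 5 and amplified with Smart-seq2. Every group carried Col10a1Cre, a Cre recombinase under the control of a gene of hypertrophic chondrocytes, and the Rosa26-Tdtomato reporter. By this design the picked cells are hypertrophic chondrocytes or their progeny, though transcripts of other cell types were also read, as given below. The 4 LoF libraries (loss of function, Ctnnb1Δ/Δ) are labelled as cells with both alleles of the β-catenin gene deleted. The 2 GoF libraries (gain of function, Ctnnb1-exon3 Δ/+) came from cells that lacked exon 3 of it on 1 allele, and the 2 WT libraries from cells with the Cre and the reporter only. Whether the pools of a group came from different animals is not said in the labels, and the p-values therefore reflect only the spread from pool to pool, part of which may be technical.

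Cathepsins are proteases of the lysosome. They are made as inactive precursors, sorted by mannose 6-phosphate receptors and activated at acid pH, and most are cysteine proteases, while cathepsin D is an aspartic and cathepsin A a serine protease. In bone, cathepsin K is the main collagen-degrading enzyme of osteoclasts, and Acp5 encodes the phosphatase whose staining is used to find these cells. Cartilage and bone-forming cells also have lysosomes and express several of the same enzymes.

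The class of each cathepsin can be read at its active site. The coding sequences (GENCODE M21, mm10) of 7 of the 10 genes hold the catalytic cysteine in a shared setting, shown here because it separates the cysteine proteases from Ctsd, Ctsa and Acp5, in which this pattern (cysteine, glycine, serine or alanine, cysteine, then tryptophan or tyrosine) was not found. The capitals mark the codon of the catalytic cysteine, which is codon 139 in Ctsk, 138 in Ctsl, 148 in Ctss, 108 in Ctsb, 139 in Ctsh, 94 in Ctsz and 257 in Ctsc. Both TGT and TGC, the codons for cysteine, occur among them.
Ctsk: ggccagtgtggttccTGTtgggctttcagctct
Ctsl: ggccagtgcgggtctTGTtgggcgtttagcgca
Ctss: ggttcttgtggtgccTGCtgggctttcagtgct
Ctsb: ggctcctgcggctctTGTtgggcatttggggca
Ctsh: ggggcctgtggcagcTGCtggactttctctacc
Ctsz: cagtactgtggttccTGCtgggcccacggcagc
Ctsc: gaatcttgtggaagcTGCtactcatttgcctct
In Ctsc the codon after the cysteine is tac, for tyrosine, where the other 6 genes have tgg, for tryptophan.

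The promoters of these genes differed in a short motif. TCACGTGA is the core of the element bound by TFEB and its relatives, transcription factors that switch on many lysosomal genes. RefSeq promoter windows (GRCm38.p6) were matched for 8 of the 10 genes, not for Ctsb and Ctsh, and the 250 bases before each annotated start were searched on both strands. TCACGTGA was in 2 of the 11 windows of these genes and in 0.785% of all 32851 windows. The shorter CACGTG, which every TCACGTGA contains, was in 3 of the 11 and in 6.02% of all. TGANTCA, the letters of the AP-1 element, was in 0 of the 11 and in 6.75% of all. The matches are printed 5′ to 3′ on the gene's strand with the motif in capitals. TCACGTGA was found for Ctsd, the 1 gene of the set that passed the test in GoF against WT, and for Ctsa, which passed in no comparison. Whether the motif bears on the level of either gene was not tested.
Ctsd: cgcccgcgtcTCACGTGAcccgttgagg
Ctsa: gagcaaactgTCACGTGAtgcag
Ctsl: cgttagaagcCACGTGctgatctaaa
The Ctsd stretch is chr7:142387909-142387936 on the minus strand, 99 to 92 bases before the RefSeq start. GENCODE M21 starts the gene further upstream and places this stretch in the untranslated part of an exon. A second CACGTG of Ctsd lies 245 to 240 bases before the RefSeq start. The Ctsa stretch is chr2:164833750-164833772 on the plus strand, 13 to 6 bases before 1 of the gene's starts, and also falls in the untranslated part of a GENCODE exon. The Ctsl stretch is chr13:64370741-64370766 on the minus strand, in an intron of the GENCODE gene. A match is a string of letters and not a measured binding site.

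Values are FPKM, which corrects fragment numbers for gene length and library total, so levels of different genes can be set side by side. Between 12587 and 13944 genes were above 0 per library, and relative depth spanned 1.29-fold. Read totals are unknown. The targeted gene, Ctnnb1, stood at 67.3 to 81.1 in LoF, 72.0 and 86.7 in GoF and 137 and 146 in WT. LoF lay below WT and overlapped GoF, and its difference from WT did not pass the test (-0.91, SE 0.24, limma adjusted p = 0.110). The table holds 1 value per gene and no value per exon, so these levels do not by themselves show a deletion of both alleles in LoF. The hypertrophic marker Col10a1 was above 0 in all 8 libraries, from 6.24 to 190. It is 1 of 7 such markers read, and Ihh, another of them, was at 0 in 6 of the 8 libraries. In GoF against LoF, limma called 4 of the 7 higher and 2 lower, and Col10a1 was not called. Of all tested genes, 5.97% were called higher and 5.68% lower. Y-linked transcripts were present in both GoF libraries and in LoF libraries 2 and 3, and Xist in both WT libraries and in LoF libraries 1 and 4, so sex and genotype cannot be told apart between GoF and WT. LoF library 3 had a summed FPKM of 8 endothelial markers of 104, against 0.617 to 12.0 in the other 7. The summed FPKM of 8 erythroid markers was 2559 and 10568 in WT, 77.4 to 2274 in LoF and 896 and 1838 in GoF. Both WT libraries thus lay above all others. Limma called 1 of the 7 tested erythroid markers, Hbb-bt, lower in GoF against WT (-7.16, adjusted p = 0.0464), where 0.900% of all tested genes were lower. The part of erythroid cells in the cathepsin and Acp5 values was not tested.

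The cathepsins were abundant and Acp5 and Ctss were not. In WT, Ctsh was the highest at 174 ± 0.936 (SD, n = 2), followed by Ctsl at 93.7 ± 3.31, and these 2 did not overlap with each other or with the next. Ctsz, Ctsb, Ctsk, Ctsc, Ctsd and Ctsa then ran from 70.0 down to 47.1, each overlapping its neighbour in that order. Acp5 followed at 4.27 ± 1.46, and Ctss was lowest. In LoF, Ctsl, Ctsh and Ctsb led at 131 ± 16.7, 125 ± 13.6 and 117 ± 16.5 (SD, n = 4), and neighbours among the first 8 genes overlapped. In GoF, the order began with Ctsd at 170 ± 35.1 and Ctsl at 162 ± 35.5 (SD, n = 2), which overlapped. The rank of Ctsd among the 10 was thus 7 in WT, 5 in LoF and 1 in GoF.

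**Figure D1:**
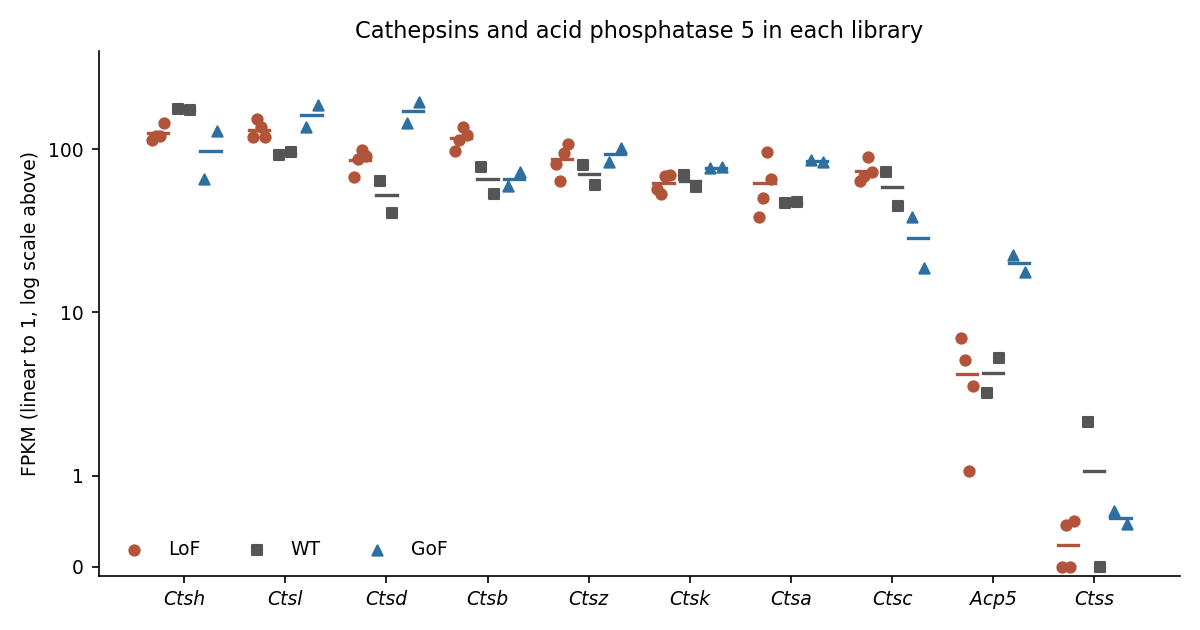
FPKM of each of the 10 genes (x axis) in every library, on an axis that is linear to 1 and logarithmic above. Circles are the 4 LoF, squares the 2 WT and triangles the 2 GoF libraries, and bars are group means. Most cathepsins lie between 40 and 200, while Acp5 lies between 1.08 and 22.3 and Ctss at or below 2.14.

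The comparisons were made with limma on log2(FPKM + 1), fitted over 12888 genes, and a gene is said to rise or fall only at a Benjamini-Hochberg adjusted p under 0.05. A log2 difference on this scale understates the change of low genes. In GoF against LoF, Acp5 rose and Ctsc fell, 2 of the 9 tested, where 11.6% of all tested genes passed (5.97% higher and 5.68% lower in GoF). In GoF against WT, Ctsd rose, 1 of 9, where 2.31% of all tested genes passed (1.41% higher and 0.900% lower). In LoF against WT, limma called 0 of the 9, with 2 at an unadjusted p under 0.05 (Ctsb and Ctsd), where 1.23% of all genes passed (0.566% higher and 0.667% lower). The comparisons share libraries: both mutants are set against the same 2 WT pools, and GoF enters both comparisons with other groups. In bulk samples, fewer cells of a type and less RNA per cell cannot be told apart. Markers of other cell states moved between GoF and LoF: 7 of 8 tested osteoblast markers rose (summed FPKM 21039 and 21221 in GoF, 1186 to 2871 in LoF, 15319 and 16002 in WT), and 5 of 6 marrow stromal markers fell (40.8 and 61.2 in GoF, 989 to 2428 in LoF, 440 and 113 in WT). Their part in the values of the 10 genes was not tested.

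**Figure D2:**
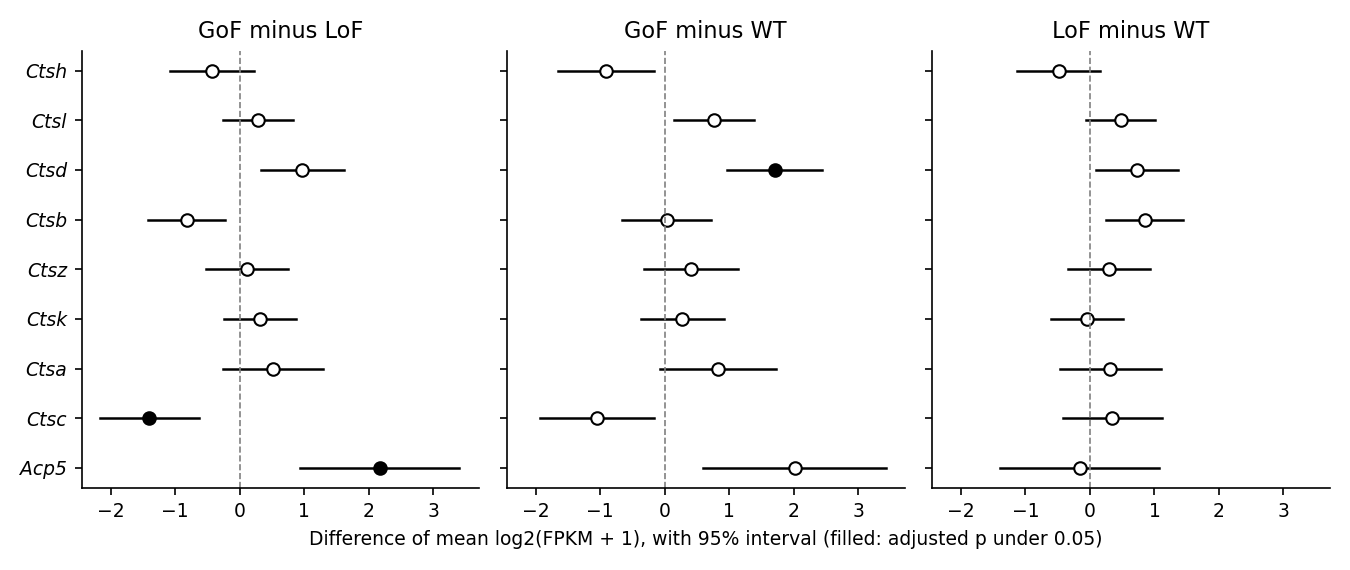
Differences of mean log2(FPKM + 1) for the 9 tested genes in the 3 comparisons, with 95% confidence intervals from limma. Acp5 and Ctsc in GoF against LoF and Ctsd in GoF against WT are the values past the adjusted threshold, and the intervals of Ctsk and Ctsz include 0 in each comparison.

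Acp5 (ENSMUSG00000001348.14, chromosome 9, 22126731 to 22135746, minus strand, mm10), the phosphatase, was low in LoF and WT and higher in GoF. It read 6.99, 5.09, 1.08 and 3.54 in LoF libraries 1 to 4, 3.23 and 5.30 in WT, and 22.3 and 17.6 in GoF. Both GoF libraries lay above all 6 others, while LoF and WT overlapped. The mean was 4.78-fold higher in GoF than in LoF (log2 difference 2.17, SE 0.55, 95% interval 0.94 to 3.40, limma adjusted p = 0.0319). Against WT the mean was 4.68 times as high, and the test was not passed (log2 difference 2.01, 95% interval 0.59 to 3.44, adjusted p = 0.163). LoF and WT differed by -0.16 (95% interval -1.39 to 1.08, adjusted p = 0.941). The call against LoF ended without LoF library 4 (adjusted p = 0.0570), without GoF library 1 (0.274) or 2 (0.170) and without WT library 1 (0.0530) or 2 (0.0540). It also ended with a pseudocount of 0.1 (adjusted p = 0.0570), and the difference stayed between 1.58 and 2.55 in all 18 other settings tried.

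Ctsk (ENSMUSG00000028111.4, chromosome 3, 95499256 to 95509362, plus strand), the collagen-degrading endopeptidase paired with Acp5 in osteoclasts, varied little. Its FPKM was 57.3, 53.0, 68.5 and 69.5 in LoF, 69.1 and 58.5 in WT, and 76.5 and 77.8 in GoF. Both GoF libraries were the highest of the 8, yet the GoF mean was only 1.24 times the LoF mean (log2 difference 0.32, SE 0.25, 95% interval -0.24 to 0.88, limma adjusted p = 0.474). From the lowest to the highest library it spanned 1.47-fold, against 20.8-fold for Acp5. The SD of its log2 values over the 8 libraries was 0.20, and 1.6% of the 500 tested genes nearest to it in mean level had a smaller one.

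Ctss (ENSMUSG00000038642.10, chromosome 3, 95526786 to 95556403, plus strand), an endopeptidase of antigen-presenting cells, begins 17423 bases after the end of Ctsk with 0 genes of the table between them. It was listed at 0 in LoF libraries 1 and 3 and WT library 2. The others read 0.460 and 0.503 in LoF libraries 2 and 4, 0.607 and 0.471 in GoF, and 2.14 in WT library 1. Multiplied by the relative depth of their libraries, the 4 low values were 0.525 to 0.548, and the value of WT library 1 was 4.00 times that step. Whether that step is 1 fragment is not given in the sources used here. Ctsk, the most even of the 9 tested genes, and Ctss, the lowest of the 10, thus lie side by side in the genome.

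Ctsl (ENSMUSG00000021477.8, chromosome 13, 64363214 to 64370306, minus strand), a broad endopeptidase, was among the highest cathepsins in each group. Its FPKM was 118, 153, 136 and 119 in LoF, 91.4 and 96.1 in WT, and 137 and 187 in GoF. Every mutant library, 6 of 6, read higher than both WT libraries. Neither difference from WT passed the test (limma, GoF 0.76, 95% interval 0.14 to 1.39, adjusted p = 0.235, and LoF 0.47, adjusted p = 0.449).

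Ctsb (ENSMUSG00000021939.7, chromosome 14, 63122462 to 63145919, plus strand) cuts within proteins and removes dipeptides from their ends. It was highest in LoF, with FPKM of 97.1, 114, 137 and 121, against 77.7 and 52.8 in WT and 59.4 and 72.3 in GoF. All 4 LoF libraries lay above the 4 others, and GoF and WT overlapped. The LoF mean was 1.80 times the WT mean and 1.78 times the GoF mean, and neither difference passed (limma, LoF against WT 0.85, SE 0.27, adjusted p = 0.187, and GoF against LoF -0.82, SE 0.27, adjusted p = 0.0821). With quantile normalization the latter passed (adjusted p = 0.0243). GoF and WT differed by 0.03 (95% interval -0.66 to 0.72, adjusted p = 0.996).

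Ctsc (ENSMUSG00000030560.17, chromosome 7, 88278085 to 88310888, plus strand), dipeptidyl peptidase I, removes dipeptides and activates the serine proteases of immune-cell granules. Its FPKM was 63.8, 68.4, 89.0 and 71.9 in LoF, 72.5 and 44.8 in WT, and 38.5 and 18.8 in GoF. Both GoF libraries lay below all 6 others, and LoF and WT overlapped. It fell in GoF against LoF by 1.40 on the log2 scale (SE 0.35, 95% interval -2.17 to -0.63, limma adjusted p = 0.0277), and the LoF mean was 2.56 times the GoF mean. The difference from WT was -1.05 (95% interval -1.94 to -0.17, adjusted p = 0.249). The call against LoF ended without LoF library 2 (adjusted p = 0.0538) or 3 (0.0533) and without GoF library 2 (0.228), where the difference was -0.90. Neutrophils are among the cells that express Ctsc, and the summed FPKM of 8 neutrophil markers was 0 and 1.40 in GoF, 9.45 to 92.4 in LoF and 79.9 and 274 in WT. Limma called 0 of the 7 tested markers in GoF against LoF, where 11.6% of all tested genes passed. GoF was lowest in both Ctsc and this sum, and in WT the library with more Ctsc had the higher sum. Among the 4 LoF libraries, library 3 had the highest Ctsc and the lowest sum. The part of neutrophils in the Ctsc values was not tested.

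Ctsh (ENSMUSG00000032359.14, chromosome 9, 90054152 to 90076089, plus strand), an aminopeptidase, was highest in WT. It read 175 and 174 in WT, 114, 121, 120.0 and 144 in LoF, and 65.7 and 129 in GoF. Both WT values were higher than any mutant value, and the GoF pair itself held the lowest and the second highest of the 6 mutant values. Neither difference passed (limma, GoF against WT -0.91, 95% interval -1.66 to -0.17, adjusted p = 0.235, and LoF against WT -0.48, 95% interval -1.13 to 0.16, adjusted p = 0.531).

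Ctsz (ENSMUSG00000016256.10, chromosome 2, 174427493 to 174439039, minus strand), a carboxypeptidase, was the second most even of the 9. Its FPKM was 81.5, 63.5, 94.4 and 107 in LoF, 79.9 and 60.1 in WT, and 83.6 and 102 in GoF. GoF and LoF overlapped, as did LoF and WT, and the limma adjusted p was 0.835 for GoF against LoF, 0.656 for GoF against WT and 0.727 for LoF against WT.

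Ctsd (ENSMUSG00000007891.16, chromosome 7, 142375911 to 142388038, minus strand), the aspartic endopeptidase of the set, was highest in GoF. Its FPKM was 145 and 195 in GoF, 67.8, 86.6, 99.2 and 90.6 in LoF, and 64.0 and 40.5 in WT. No groups overlapped, and GoF lay above LoF and LoF above WT. It rose in GoF against WT by 1.70 (SE 0.33, 95% interval 0.96 to 2.44, limma adjusted p = 0.0281), and the mean was 3.25-fold higher. GoF against LoF, with a ratio of means of 1.98, did not pass (log2 difference 0.97, SE 0.29, 95% interval 0.33 to 1.61, adjusted p = 0.0556), and passed with median ratio scaling (1.15, adjusted p = 0.0114). LoF against WT did not pass either (0.73, 95% interval 0.09 to 1.37, adjusted p = 0.296). The call against WT ended without LoF library 2 (adjusted p = 0.0513), GoF library 1 (0.112) or 2 (0.172) and WT library 1 (0.0796) or 2 (0.190). With sex as a covariate the difference was 1.46 (adjusted p = 0.313). Within LoF, the 2 libraries with Y-linked transcripts read 86.6 and 99.2 and the 2 with Xist 67.8 and 90.6. Pairs of 2 libraries cannot decide on the part of sex. For Ctsd too, sex and genotype cannot be told apart between GoF and WT.

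Ctsa (ENSMUSG00000017760.15, chromosome 2, 164832873 to 164841032, plus strand), a serine carboxypeptidase that also protects β-galactosidase and neuraminidase in the lysosome, had FPKM of 38.3, 49.97, 95.7 and 65.2 in LoF. It read 46.6 and 47.6 in WT and 85.6 and 83.4 in GoF. The GoF libraries lay above WT, while LoF spanned both. The highest value was that of LoF library 3, which also had the highest Ctsb (137) and Ctsc (89.0) of all libraries. It is the library with the endothelial markers, and their part in these values was not tested. No difference passed (limma, GoF against WT 0.83, 95% interval -0.07 to 1.73, adjusted p = 0.394, and GoF against LoF 0.51, adjusted p = 0.407).

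Read as a set, the 10 genes summed to 644, 715, 841 and 792 FPKM in LoF, 714 and 883 in GoF and 682 and 579 in WT, and GoF and LoF overlapped. The make-up of the sum differed more. Ctsd made up 21.2% ± 1.22 (SD, n = 2) of it in GoF, 11.5% ± 0.689 (SD, n = 4) in LoF and 8.19% ± 1.70 (SD, n = 2) in WT. Ctsb made up 8.25% ± 0.093 in GoF, 15.6% ± 0.545 in LoF and 10.3% ± 1.62 in WT, and Ctsh 11.9% ± 3.84, 16.8% ± 1.74 and 27.8% ± 3.04 in the same order. The 7 cysteine cathepsins together held 65.5% ± 1.38 in GoF, 79.8% ± 2.37 in LoF and 83.6% ± 0.409 in WT. These shares are descriptions of the sum, and no test was run on them.

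**Figure D3:**
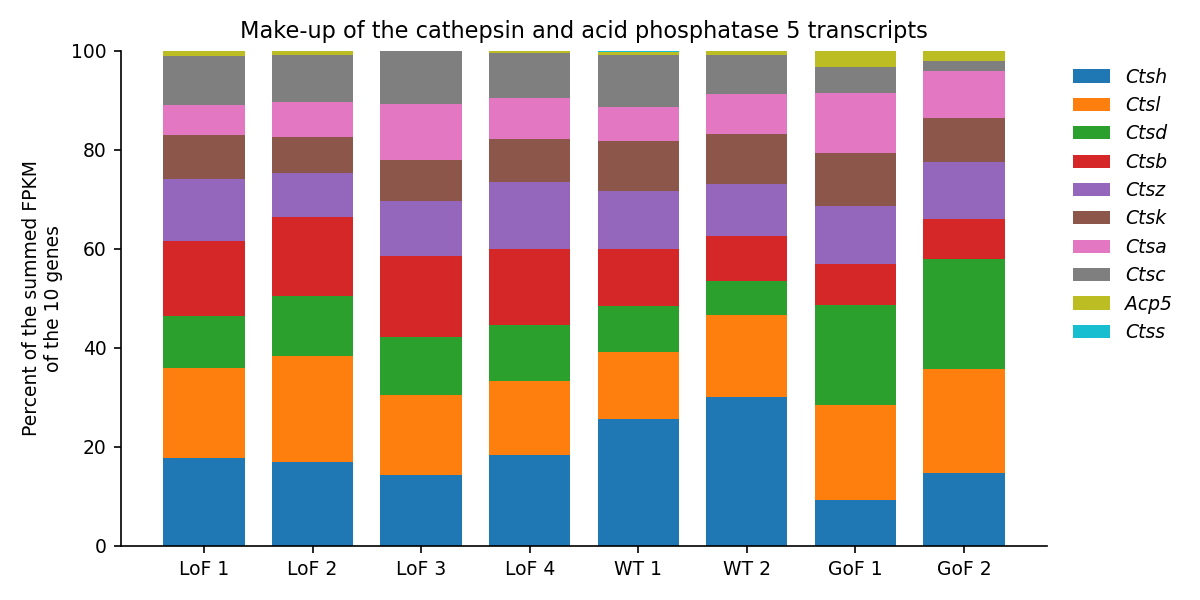
Share of the summed FPKM of the 10 genes (y axis, percent) taken by each gene in every library (x axis), as stacked bars. The share of Ctsd has a mean of 21.2% in GoF against 11.5% in LoF and 8.19% in WT, and that of Ctsh is largest in WT at 27.8%.

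In GoF against LoF, the libraries of the 2 groups did not overlap for 5 of the 9 genes, Acp5, Ctsd and Ctsk higher and Ctsb and Ctsc lower in GoF, where 33.5% of all genes tested did not overlap (14.8% higher, 18.7% lower). The median of the 9 differences was 0.29, against -0.17 over all tested genes. In GoF against WT, 8 of 9 did not overlap (48.0% of all genes, 21.8% higher and 26.1% lower), 6 higher and 2 lower, with a median of 0.41 against -0.08. In LoF against WT, 4 of 9 did not overlap (21.4% of all genes, 11.5% higher and 9.88% lower), Ctsl, Ctsb and Ctsd higher and Ctsh lower in LoF, with a median of 0.32 against 0.06.

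Genes whose pattern was most like that of Acp5 and Ctsk were ranked by the root mean square difference between centred log2 values over the 8 libraries, among 10951 named tested genes. The 5 nearest to Acp5 were Specc1 (0.37), Cib1 (0.37), Coro6 (0.38), Mageh1 (0.39) and Fkbp7 (0.42). The nearest of the cathepsins to Acp5 was Ctsd, at 0.91 and rank 1213. For Ctsk the 5 nearest were Ubl4a (0.09), Smpd2 (0.10), Sin3b (0.11), Ppic (0.11) and Oaz1 (0.12), with Ctsz at 0.19 and rank 38. The difference is not scaled to the spread of a gene. Genes nearest to an even gene such as Ctsk are therefore even as well, whether or not they vary with it. Acp5 and Ctsk were at a difference of 1.02 from each other. The nearest genes to Ctss, with its few values above 0, were Dhx33, Gmfb, Sprtn, Abca4 and Mtr.

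The other cathepsins and related lysosomal peptidases, 16 genes of which 7 were tested, included none that passed in any of the 3 comparisons. The shares passing over all tested genes were 11.6% (GoF against LoF), 2.31% (GoF against WT) and 1.23% (LoF against WT). With 7 tested genes, the lack of calls does not set this list apart from those shares. Lgmn, the asparaginyl endopeptidase that processes several cathepsins, was the most abundant, at 178 to 207 in LoF, 122 and 148 in WT and 117 and 137 in GoF. A further 8 genes of this list, Ctsj, Ctsm, Ctsq, Ctsr, Cts3, Cts6, Cts7 and Cts8, were listed at 0 in every library. Ctsg, a protease of neutrophil granules, read 5.61 and 2.33 in WT, 1.37 in LoF library 2 and 0 in the other 5.

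Inhibitors of cysteine cathepsins were measured beside their targets, 10 of 21 tested. The calls were 1 higher for GoF against LoF, 1 higher and 1 lower for GoF against WT, and 1 lower for LoF against WT. Over all tested genes the shares called in those directions were, in the same order, 5.97%, 1.41%, 0.900% and 0.667%. Cst3, the secreted cystatin C, was the highest, at 138 to 244 in LoF, 164 and 233 in WT and 327 and 371 in GoF. GoF did not overlap with either group, and the difference from LoF did not pass (0.87, SE 0.28, limma adjusted p = 0.0718). Cstb, the cytosolic stefin B, read 126 to 204 in LoF, 85.0 and 127 in GoF and 73.3 and 80.6 in WT, with no call. Fetub, a secreted protein of the cystatin family, read 5.71 and 5.33 in GoF and at most 0.935 elsewhere. It rose in GoF against LoF (2.16, SE 0.45, adjusted p = 0.0124) and against WT (2.39, adjusted p = 0.0429), but reached an FPKM of 1 in GoF only, so it entered the test through the group where it is high and had to differ. Stfa1, a stefin, read 32.3 and 3.49 in WT and 0 in the other 6 libraries, and fell in both mutants against WT (adjusted p = 0.0374 for LoF and 0.0429 for GoF). It too entered the test only through the group where it is high, and both calls ended with no filter. Neutrophil markers summed to 79.9 and 274 in those WT libraries, and their part in the Stfa1 values was not tested. The Fetub call against LoF held in 12 of 18 other settings and ended without either GoF library (adjusted p up to 0.0960). The Fetub call against WT held in 4 of 18 (adjusted p up to 0.360), ending on the removal of any 1 library but LoF library 3. The Stfa1 calls held in 4 of 18 each, ending on the removal of any 1 library but WT library 2 (limma adjusted p up to 0.297).

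Of the other acid phosphatases, 5 were tested. Pxylp1, Acp6 and Acpp rose in GoF against LoF, and Pxylp1 and Acpp also against WT. Of all tested genes, 5.97% rose in GoF against LoF and 1.41% in GoF against WT. Acpp, prostatic acid phosphatase, read 39.0 and 12.4 in GoF, 0.287 in LoF library 3 and 0 in the other 5 libraries (limma adjusted p = 0.000528 against LoF and 0.00414 against WT). It passed the filter on low values only through the GoF libraries, where it is high, so that it had to differ. Pxylp1, which removes phosphate from the xylose of proteoglycan linkers, read 92.4 and 137 in GoF, 6.13 to 11.4 in LoF and 23.0 and 14.6 in WT. Its difference was 3.56 (SE 0.37, adjusted p = 0.000309) against LoF and 2.55 (adjusted p = 0.0139) against WT. Acp6, a mitochondrial lysophosphatidic acid phosphatase, read 33.5 and 33.3 in GoF, 3.63 to 16.9 in LoF and 8.67 and 9.65 in WT (2.19 against LoF, adjusted p = 0.0228). Acp2, the other lysosomal acid phosphatase, read 9.41 and 15.7 in GoF, 3.77 to 9.65 in LoF and 4.72 and 4.84 in WT, and passed in no comparison. The Acpp and Pxylp1 calls against LoF held in all 18 other settings, and that of Acp6 in 12, ending without LoF library 2 or either GoF library (adjusted p up to 0.208). Against WT, Acpp held in 14 (ending without WT library 1) and Pxylp1 in 10 (ending without any 1 of the GoF or WT libraries, adjusted p up to 0.228).

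**Figure D4:**
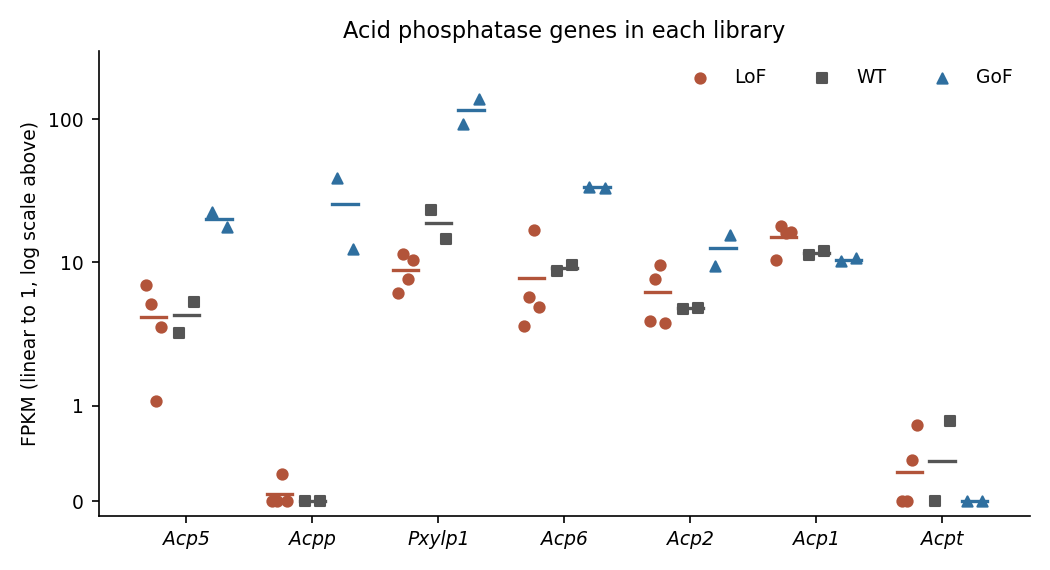
FPKM of Acp5 and the other acid phosphatases (x axis) in every library, on an axis linear to 1 and logarithmic above. Circles are LoF, squares WT and triangles GoF libraries, with bars at group means. Acp5, Acpp, Pxylp1 and Acp6 have both GoF libraries above all others, and Acp1 does not.

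Of 35 tested lysosomal hydrolases and activators, 7 rose and 1 fell in GoF against LoF. Of all tested genes, 5.97% rose and 5.68% fell. The median difference of the 35 was 0.31, close to the 0.29 of the 9 tested genes above. Smpd1, acid sphingomyelinase, read 57.1 and 76.3 in GoF against 4.53 to 10.3 in LoF and 6.73 and 12.9 in WT (3.27 against LoF, limma adjusted p = 0.00105, and 2.69 against WT, 0.0210). Ppt2, a thioesterase, rose in the comparison with LoF (1.88, adjusted p = 0.0193), a call that ended without either GoF library (adjusted p up to 0.206). Lipa, lysosomal acid lipase, fell from 8.97 to 15.2 in LoF to 0 and 1.31 in GoF (-3.12, adjusted p = 0.00276) and passed against WT as well (-2.49, adjusted p = 0.0474). Against WT the call of Smpd1 held in 10 of 18 other settings, ending without any 1 of the GoF or WT libraries (adjusted p up to 0.197), and that of Lipa in 2, ending without any 1 of the 8 (up to 0.297). The 24 tested membrane and transport proteins of the lysosome included 0 calls in the 3 comparisons by limma.

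Sorting receptors and the proton pump, on which delivery and activation of cathepsins depend, gave single calls in opposite directions. In GoF against LoF these were 2 of 10 tested sorting genes and 2 of 18 pump subunits, where 11.6% of all tested genes passed. M6pr, the cation-dependent mannose 6-phosphate receptor, read 20.8 to 36.4 in LoF, 18.1 and 18.4 in WT and 7.17 and 14.8 in GoF, and fell in GoF against LoF (-1.39, SE 0.37, limma adjusted p = 0.0387). Gga2, an adaptor of the same route, rose (1.32, SE 0.37, adjusted p = 0.0479). These 2 calls held in 4 and 3 of 18 other settings. That of M6pr ended without any 1 library but LoF library 1, and that of Gga2 without any 1 but LoF library 3 (adjusted p up to 0.302). Of 18 tested pump subunits, 2 passed in GoF against LoF, in opposite directions. Differences were positive for 15 of the 18, with a median of 0.68, against 5460 of 12888 and -0.17 over all tested genes. Atp6v0b rose against LoF and WT (1.56, adjusted p = 0.00505, and 1.96, 0.0107), reading 151 and 191 in GoF, 47.3 to 67.0 in LoF and 41.8 and 44.1 in WT. Without GoF library 2 the call against LoF ended (adjusted p = 0.0636), and that against WT ended without any 1 of the GoF or WT libraries (up to 0.163). Tcirg1, the subunit typical of the osteoclast pump, fell against LoF, from 24.6 to 40.9 there to 4.78 and 15.1 in GoF (-1.77, adjusted p = 0.0271), and held in 7 of 18 settings, ending without LoF library 1 or 3, GoF library 1 or either WT library (adjusted p up to 0.255).

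Of the transcription factors that bind TCACGTGA-like elements, Tfeb rose in GoF against LoF (1.99, SE 0.38, limma adjusted p = 0.00835). It read 3.45 and 3.04 in GoF, 0.285 in LoF library 3, 0.428 in WT library 2 and 0 in the other 4, so it passed the filter only through the group where it is high and had to differ. The difference from WT did not pass (1.83, adjusted p = 0.0656). Tfe3, at 2.89 to 7.32, and Mitf, at 0 to 2.10, passed in no comparison, and Tfec was at 0.779 in LoF library 1 and listed at 0 in the other 7. Whether the level of Tfeb bears on Ctsd or any other gene was not tested.

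Because Acp5 and Ctsk are used to find osteoclasts, 16 other genes that these cells express were read in the same libraries. They summed to 3799 to 5983 in LoF, 2457 and 3229 in WT and 40.4 and 64.4 in GoF, and in LoF and WT nearly all of it was Mmp9. Mmp9, a gelatinase that hypertrophic chondrocytes can also make, read 3735 to 5913 in LoF, 3167 and 2403 in WT and 3.27 and 2.56 in GoF. It fell in GoF, opposite to Acp5, with log2 differences of -10.24 against LoF (limma adjusted p = 1.35e-08) and -9.47 against WT (1.26e-07). The latter call ended with only the groups compared (adjusted p = 0.0562). Of the 7 tested genes of this list, 3 fell and 0 rose in GoF against LoF, where 5.68% of all tested genes fell and 5.97% rose. Car2 read 14.45 to 22.7, Clcn7 2.76 to 16.4, Src 0.298 to 9.14 and Sh3pxd2a 1.32 to 3.56 over the libraries, and Rufy4 was at 0. The 9 that define osteoclasts most closely were low. Calcr, Dcstamp, Ocstamp and Siglec15 were listed at 0 in all 8. Oscar was above 0 in GoF library 2 only (0.998), Atp6v0d2 in LoF library 2 (0.874) and GoF library 2 (0.223), and Tnfrsf11a, the receptor for the osteoclast cytokine RANKL, reached at most 0.453. Itgb3, which other cells also make, fell in GoF against LoF, from 3.40 to 4.01 there to 0.460 and 0.182 in GoF (-1.82, SE 0.43, limma adjusted p = 0.0233). WT read 4.06 and 2.50, and the call ended without either GoF library (adjusted p up to 0.130). Nfatc1, also expressed outside osteoclasts, read 6.26 and 5.38 in GoF, 0.228 to 2.35 in LoF and 2.43 and 1.61 in WT (adjusted p = 0.0523 against LoF). The 9 genes summed to 4.50 to 6.36 in LoF, 6.72 and 6.78 in GoF and 4.24 and 6.73 in WT. Itgb3 and Nfatc1 made up most of each sum. Ctsk stood at 53.0 to 77.8 in the same pools. The level of Ctsk beside these genes in osteoclasts was not measured here. The part of osteoclasts in the Ctsk and Acp5 values was not tested.

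**Figure D5:**
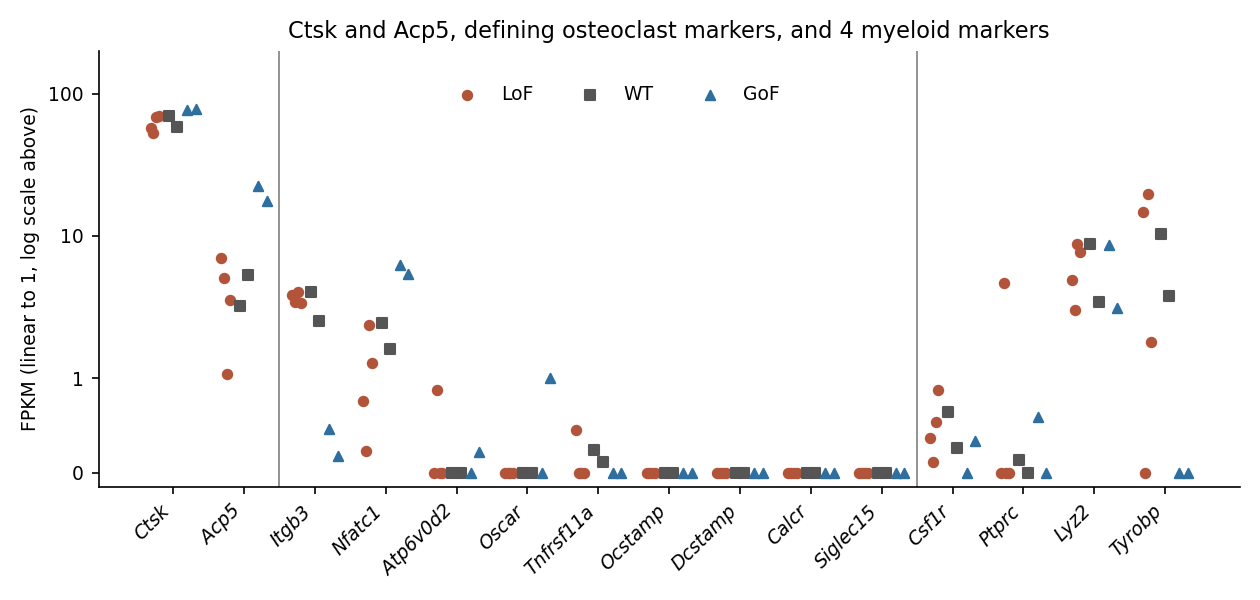
FPKM of Ctsk and Acp5 (left), the 9 genes that define osteoclasts (middle) and 4 myeloid markers (right) in every library (genes on the x axis), on an axis linear to 1 and logarithmic above. Circles are LoF, squares WT and triangles GoF libraries. Ctsk lies above 50 in every library. Of the 9 osteoclast genes, 4 are at 0 throughout and 3 more do not reach 1.

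Markers of monocytes and macrophages, which also express several cathepsins, summed to 48.1 to 114 in LoF, 50.4 and 50.7 in WT and 32.0 and 36.3 in GoF. Csf1r was at most 0.870, Ptprc was above 1 only in LoF library 2 (4.66), Lyz2 read 3.01 to 8.77 and Tyrobp 0 to 19.7, with 0 in both GoF libraries. Other genes of this list were higher, with Laptm5 at 6.59 to 32.1 and Fcer1g, Cd52 and Coro1a reaching 52.9, 27.6 and 14.2. Itgam and Cx3cr1 were listed at 0 in every library. Ctss, which such cells express strongly, was at or below 2.14. Of 10 tested genes of this list, Fcgr3 rose and Fcer1g fell in GoF against LoF (limma adjusted p = 0.00650 and 0.0257), where 11.6% of all tested genes passed. Fcgr3 passed the filter only through the GoF libraries, where it is high. The Fcer1g call ended without LoF library 2, 3 or 4 or either GoF library (adjusted p up to 0.344). The part of these cells in the values of the other cathepsins was not tested.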

How the data were processed

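Pools of 70 cells were amplified with Smart-seq2, per the labels' protocols. The authors deposited 1 table of FPKM per gene and library. The submitters' processing notes name HISAT2, SAMtools 0.1.18, Cufflinks, HTSeq and mm10, without role or order. No annotation release is given in the sources used here. Because FPKM is relative to the library total, abundant genes lower the others. Smart-seq2 does not mark strand. Of 48555 lines, 65 repeated a gene ID with identical values, which left 48490 genes. Starts in the table count from 0, and 1 was added. Depth is unknown, so no counting intervals were given. Relative depth came from the steps between low values (mean FPKM below 2).

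One model over the LoF, GoF and WT libraries was fitted in R 4.3.3 (limma 3.58.1) on log2(FPKM + 1), with a mean-variance trend. It took the 12888 genes that reached an FPKM of 1 in 2 or more of the 8 libraries. Adjusted p-values are Benjamini-Hochberg over these genes. GoF and WT have 2 libraries each and share the estimate of the spread. The code was tested on simulated data. Other settings were quantile normalization, median ratio scaling, a pseudocount of 0.1, no filter, a fit on only the groups compared, no trend, the replicate number as a block, sex as a covariate, LoF libraries 2 and 3 left out, and each library left out. A fit without LoF libraries 1 and 4 was added after seeing the data.

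Named genes are all 10, the called genes with the 4 smallest adjusted p per list and comparison, 9 osteoclast and 4 myeloid markers, the 4 MiT/TFE factors, the 5 genes nearest in pattern and Ctnnb1. Col10a1, Ihh, Mmp9, Fcer1g and Fcgr3 were named after their values were seen. So were genes of the other lists named without a call (such as Ctsg, Lgmn, Cst3, Cstb and Acp2). Members, lists and settings were chosen with earlier results of these data known. One called gene of the hydrolase list is not reported here. Protein sequences were not used here, and identity between the proteins was not computed.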

Additional observations from a re-analysis of the deposited data

How the results depend on the processing

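Across the 18 other settings no called difference of the 10 genes changed sign, and 17 of 486 differences did, all of them differences that were not called (5 are Acp5 in LoF against WT). The Acp5 call in GoF against LoF held in 7 settings (adjusted p 0.0246 to 0.274), the Ctsc call in 9 (0.0203 to 0.228) and the Ctsd call in GoF against WT in 7 (0.00726 to 0.313). In GoF against LoF, 2 of the 10 passed. This became 1 with a pseudocount of 0.1, with only the groups compared, with no trend and with sex as a covariate, 0 with no filter, without LoF libraries 2 and 3 or 1 and 4, and 0 to 2 when each library was left out. In GoF against WT, 1 passed. This became 0 with only the groups compared, with sex as a covariate, with no trend, and on leaving out LoF libraries 2 and 3 or 1 and 4, and 0 to 1 when each library was left out. In LoF against WT it was 0 throughout. Over all genes, the 1501 calls of GoF against LoF became 974 with sex as a covariate, 664 without LoF libraries 2 and 3, 870 without LoF libraries 1 and 4 (chosen after seeing the data) and 429 to 1369 when each library was left out. The 159 of LoF against WT became 83 with a pseudocount of 0.1, 53 with no filter, 54 with no trend, 14 with sex, 50 without LoF libraries 1 and 4 and 0 to 135 when each library was left out. They became 0 by limma with only the groups compared (1569 at an unadjusted p under 0.05) and without LoF libraries 2 and 3 (1492). The 298 of GoF against WT became 0 with only the groups compared (2334 unadjusted), 11 with sex, 127 and 146 without LoF libraries 2 and 3 or 1 and 4, and 39 to 332 when each library was left out. The calls of LoF against WT were 73 higher and 86 lower, 76 and 127 with median ratio scaling and 80 and 147 with quantile normalization. The GoF against LoF median of all genes moved from -0.17 to -0.05 and -0.03 in these. Apart from fewer samples or other genes tested, the cause was not tested.

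Same-numbered libraries did not deviate together (r across genes 0.0072 for GoF and WT, 0.018 for LoF and GoF, 0.0044 for LoF and WT), so they share a number only. With the number as a block, 727, 1 and 15 genes passed in GoF against LoF, LoF against WT and GoF against WT, and 0, 0 and 0 of the 10 genes.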
